A study of Mus musculus with 32 samples.

Results

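Adipokines are proteins that fat cells release into the blood or the surrounding tissue. The genes followed here were 7 adipokine genes, chosen by symbol: Adipoq (adiponectin), Cfd (complement factor D, or adipsin), Retn (resistin), Rbp4 (retinol-binding protein), Nampt (the NAD-making enzyme also released as visfatin), Apln (apelin) and Vegfa (vascular endothelial growth factor A). All 7 were found among 57186 genes listed, and 6 of them were among the 14428 genes with enough counts to test. Rbp4 was not. The cells were 3T3-L1, a mouse preadipocyte line, differentiated into adipocytes with insulin, dexamethasone and IBMX, all of 1 line. They were treated for 24 h in 8 groups of 4 libraries each: DMSO vehicle, SCO, CAP7 or rosiglitazone (ROSI), each without TNF-alpha (TNF) and with it. DMSO without TNF is called untreated below. ROSI activates PPARγ, the master nuclear receptor of fat cells, and was included to judge effects on PPARγ target genes. The series concerns an Artemisia scoparia extract. The sources used here do not say what SCO and CAP7 are, and they give no doses.

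Adiponectin acts on liver and muscle through the receptors Adipor1 and Adipor2 and through Cdh13, and low adiponectin goes with insulin resistance. Adipsin is a serine protease that cuts complement factor B, the rate-limiting step of the alternative complement pathway, and in mice most of it comes from fat. TNF is an inflammatory cytokine that makes fat cells insulin resistant and lowers many genes of the mature adipocyte, and several adipokine genes, Adipoq among them, are PPARγ targets. What was measured here is mRNA in cells, not secreted protein.

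The sequences just upstream of Adipoq, Retn and Cfd are shown because the first pair had the most similar profiles over the libraries, while Cfd was the tested member for which no compound gave a call in the presence of TNF. Each is the 250 bases before the RefSeq start site on the plus strand of GRCm38.p6, a build other than the GRCm39 that the counts were made with. Capitals mark matches to the motifs searched, read on both strands.
Adipoq (chr16:23146286-23146535): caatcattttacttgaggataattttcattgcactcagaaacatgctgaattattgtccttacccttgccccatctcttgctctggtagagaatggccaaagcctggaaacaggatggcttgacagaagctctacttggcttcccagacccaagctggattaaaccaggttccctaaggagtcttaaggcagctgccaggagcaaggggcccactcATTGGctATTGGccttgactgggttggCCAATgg
Retn (chr8:3655520-3655769): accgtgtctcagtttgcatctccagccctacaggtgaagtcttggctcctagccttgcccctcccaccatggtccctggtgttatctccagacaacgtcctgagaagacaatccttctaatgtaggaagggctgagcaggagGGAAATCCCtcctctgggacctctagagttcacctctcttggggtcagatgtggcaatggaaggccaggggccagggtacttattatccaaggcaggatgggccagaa
Cfd (chr10:79890603-79890852): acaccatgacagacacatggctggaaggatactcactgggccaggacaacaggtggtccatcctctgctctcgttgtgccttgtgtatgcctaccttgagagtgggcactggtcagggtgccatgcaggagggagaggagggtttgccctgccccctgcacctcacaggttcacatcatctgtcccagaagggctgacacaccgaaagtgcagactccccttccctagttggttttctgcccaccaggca
In Adipoq, the capitals are 3 matches to the CCAAT box (CCAAT), whose first bases as printed lie 34, 27 and 7 bases before the start. In Retn, the capitals are 1 match to an NF-κB motif (GGGNNTTCC), 108 bases before the start. Cfd held no match to these or to the other motifs searched, a C/EBP motif (TTGCNNAA), a PPAR repeat (AGGTCA, any base, AGGTCA), a hypoxia core (ACGTG) and a TATA box (TATAAA), and no match in a window overlapped one to another motif. Of 32851 such windows over all genes, 33.8% held the CCAAT box, 4.98% the NF-κB motif, 9.56% the C/EBP motif, 0.0335% the PPAR repeat, 16.6% the hypoxia core and 12.4% the TATA box. A match is a description of letters, and binding was not measured.

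Each library held between 11.31 and 37.68 M counts (M, 1e6), with a median of 20.87, and log2 levels correlated across genes at 0.9776 to 0.9866 within groups. Levels below are CPM (counts for every 1e6 of the library, its size scaled with the TMM factor), one value a library, and are not compared between genes. The counts behind single values ran from 854 for Apln to 336890 for Cfd. Differences are given on the log2 scale ± a standard error, from edgeR's quasi-likelihood test. A gene was called at a Benjamini-Hochberg adjusted p under 0.05 over all genes tested. The test gives no standard error, so it was derived as the size of the change divided by the square root of the F statistic. The 95% intervals were built from it with a t quantile. By their titles the 4 libraries of a group are biological replicates; a batch or day is not stated, and that they came from separate cultures is not stated either, so p-values measure the spread between these samples. All 7 adipocyte markers looked at (Pparg, Cebpa, Fabp4, Plin1, Lipe, Cidec, Slc2a4) were expressed. Of the leukocyte markers, Adgre1 had 0 counts over all libraries, Ptprc 7, Lyz2 229, Csf1r 824 and Cd68 2690. The endothelial markers summed to at most 1.794 CPM in any library.

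**Figure D1:**
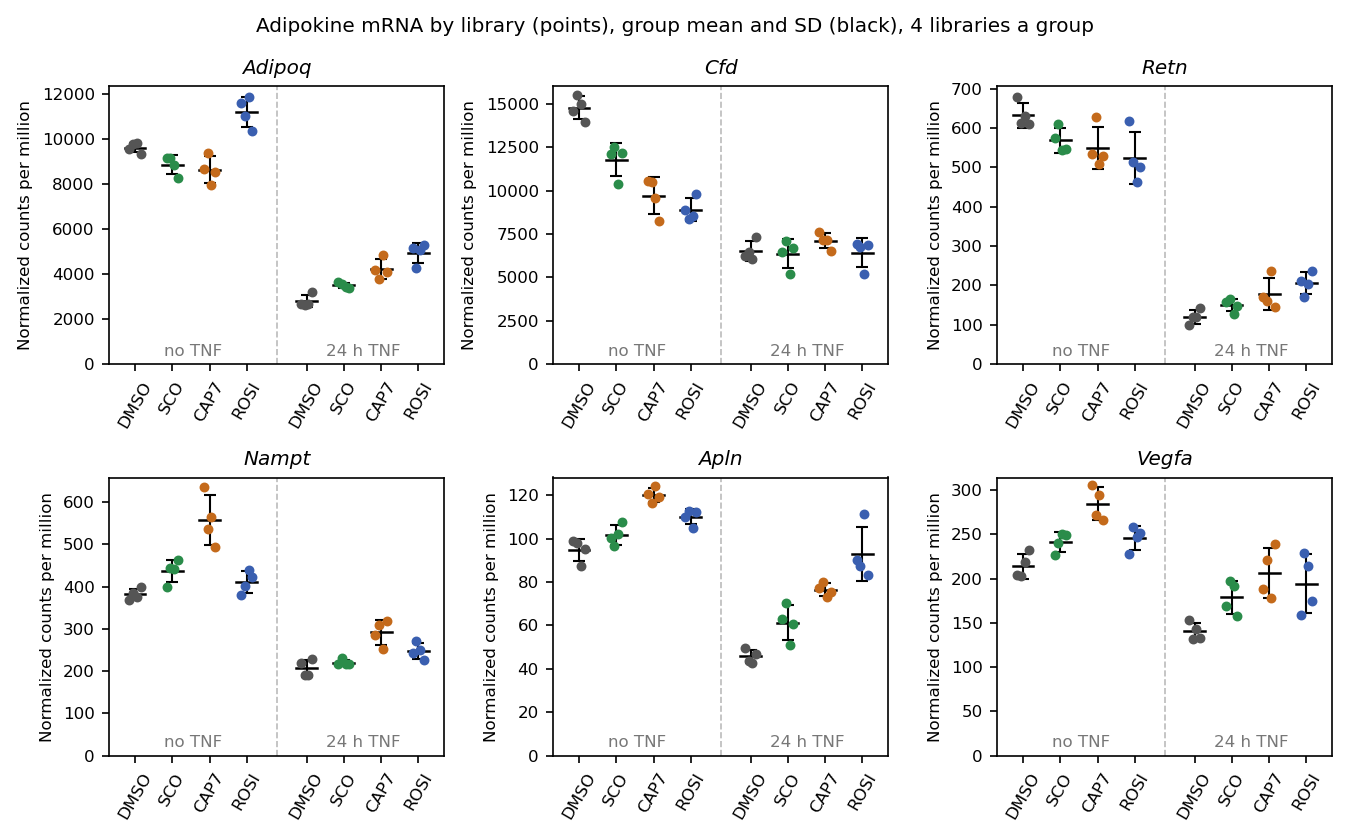
Normalized CPM of 6 adipokine genes in each of 32 libraries, with the mean and SD of each group of 4; grey points are DMSO, green SCO, orange CAP7 and blue ROSI, and the dashed line separates libraries without TNF (left) from those with it (right). All 6 genes are lower with TNF in DMSO, from 9633 to 2804 for Adipoq and from 632 to 120 for Retn, and with TNF each gene except Cfd has its lowest group mean in DMSO.

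TNF lowered all 6 tested adipokines in vehicle-treated cells, most of all resistin (5.26-fold) and adiponectin (3.44-fold), then adipsin (2.26-fold), apelin (2.07-fold), Nampt (1.84-fold) and Vegfa (1.52-fold). Of all genes tested, 54.2% were called in this comparison, about as many higher as lower, with a median change of -0.01, against a median of -1.11 for the 6 adipokines. Adipoq stood at 9588, 9771, 9824 and 9351 CPM in the untreated libraries and at 2669, 2655, 2700 and 3192 with TNF, a log2 change of -1.78 ± 0.07 (adjusted p = 3.00e-22). The groups were far apart, and the fourth library with TNF was the highest of its group. Retn, the insulin-antagonizing hormone of rodent fat, stood at 678, 612, 629 and 610 CPM untreated and at 100, 119, 119 and 142 with TNF (-2.40 ± 0.12, adjusted p = 5.57e-20). The highest library with TNF was far below the lowest untreated one.

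Adipsin lost a smaller share. Cfd stood at 14615, 15513, 15005 and 13945 CPM untreated and at 6225, 6483, 6075 and 7339 with TNF (-1.18 ± 0.09, adjusted p = 4.67e-14). The angiogenic and metabolic factors moved least. Apln, the peptide ligand of the receptor Aplnr, went from 94.8 ± 5.14 to 45.7 ± 3.17 CPM (SD, n = 4), a change of -1.05 ± 0.08 (adjusted p = 2.77e-14). Nampt, the rate-limiting enzyme of NAD salvage, stood at 368, 384, 375 and 398 CPM untreated and at 219, 190, 191 and 228 with TNF (-0.88 ± 0.08, adjusted p = 7.50e-13). Vegfa, the main growth factor for blood vessels, went from 214 ± 14.1 to 141 ± 9.60 CPM (SD, n = 4; -0.61 ± 0.09, adjusted p = 4.64e-07). In none of the 6 did the untreated and TNF libraries overlap. The share of all genes without overlap was not counted, here or in the comparisons below. All 6 were called under each alternative setting run, where 6695 to 7862 of all genes were called. The Nampt counts carry one uncertainty, since the noncoding gene Gdap10 is annotated inside Nampt and how reads shared by both were counted is not stated.

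The adipocyte markers also fell with TNF, 7 of 7 of them (median -2.44, with Cidec at -3.85 and Lipe at -2.63), beside 54.2% of all genes called in either direction. Their summed level had a median of 21110 CPM untreated (20230 to 21590) and 6549 with TNF (6103 to 7335). In bulk libraries fewer adipocytes and less RNA per adipocyte cannot be told apart. Of 5 preadipocyte or fibroblast markers, 4 were tested: Dlk1 (-0.90) and Thy1 (-0.52) fell, Pdgfra (1.10) rose and Ly6a was at -0.00, and their summed medians were 936.8 (840.5 to 996.9) and 575.5 (521.7 to 589.1) CPM. The leukocyte markers summed to medians of 2.383 (1.779 to 4.031) and 11.93 (10.6 to 14.11) CPM, nearly all of the rise from Cd68, which was at 0.942 and 10.5 CPM. The part of these shifts in the adipokine results was not tested.

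Rbp4, the carrier of retinol in plasma, was barely detected in these cells. Over all 32 libraries and 673.9 M counts it had 6 counts, and 29 libraries had none. The counts were 1 in a library with SCO, 1 in a library with CAP7 and 4 in the fourth library with TNF and ROSI. A count of 0 allows up to 3 counts, or 0.0829 to 0.252 CPM depending on the library (counting error only), so no difference between groups was detectable. Leptin (Lep) had 41 counts in all and was not tested either.

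Without TNF, each compound lowered adipsin, CAP7 raised Nampt, Vegfa and apelin, ROSI raised adiponectin and apelin, and no rise was called with SCO. All 3 comparisons share the untreated libraries. Cfd fell with each compound: it stood at 12084, 12495, 10384 and 12161 CPM with SCO, at 10543, 10477, 9583 and 8235 with CAP7 and at 8902, 8341, 8518 and 9819 with ROSI. None of these libraries reached the lowest untreated value of 13945. The changes were -0.33 ± 0.09 with SCO (adjusted p = 0.00767), -0.61 ± 0.09 with CAP7 (adjusted p = 1.36e-06) and -0.73 ± 0.09 with ROSI (adjusted p = 1.93e-08), all by edgeR. That left 79.8%, 65.7% and 60.2% of the untreated mean. The adipocyte markers were at summed medians of 43260 (42020 to 49140), 40560 (31490 to 42500) and 55520 (47030 to 58080) CPM in the same order, above the untreated libraries, and the preadipocyte markers at 660.5 (623.8 to 696.6), 620.1 (525.9 to 648.9) and 643.2 (635.4 to 726.4), below them. The adipocyte sums are mostly Fabp4. Marker by marker, 4 of 7 rose with SCO (median change 0.19), 6 with CAP7 (0.41) and 5 with ROSI (0.50), and 1, Pparg, fell with each. In the same order, 19.3%, 30.3% and 37.4% of all genes were called in either direction. The part of these markers in the result was not tested. Cfd was the 1 member called with SCO, where 19.3% of all genes were called. Nampt stood at 399, 443, 442 and 462 CPM with SCO, all above the untreated libraries, and missed the threshold (0.20 ± 0.07, adjusted p = 0.0617, range 0.0106 to 0.250), but passed it without SCO replicate 1 (0.23, adjusted p = 0.0440).

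CAP7 called 4 of the 6, where 30.3% of all genes were called. Besides the fall of Cfd, Nampt rose to 635, 536, 564 and 493 CPM (0.55 ± 0.07, adjusted p = 2.67e-07), 1.46-fold above untreated. Vegfa rose to 305, 272, 295 and 266 CPM (0.41 ± 0.09, adjusted p = 5.19e-04) and Apln to 120.5, 116, 124 and 119 (0.34 ± 0.08, adjusted p = 7.96e-04). In all of these the CAP7 and untreated libraries did not overlap. With ROSI 3 of the 6 were called, against 37.4% of all genes. Beside Cfd they were Adipoq, at 11614, 11047, 11894 and 10382 CPM (0.22 ± 0.07, adjusted p = 0.0123), and Apln, at 110, 113, 105 and 112 (0.21 ± 0.08, adjusted p = 0.0287). Both groups lay above the untreated libraries. Both calls ended when library sizes were used without TMM factors (Adipoq 0.08, adjusted p = 0.358, with a range of 0.00303 to 0.358 over the alternatives; Apln 0.07, adjusted p = 0.491, range 0.0084 to 0.491), a scaling that also moved the median of all genes from -0.03 to -0.17. For Apln the call also ended without untreated replicate 3 (0.18, adjusted p = 0.106) or 4 (0.21, adjusted p = 0.0508), or without ROSI replicate 1 (0.21, adjusted p = 0.0505), 2 (0.20, adjusted p = 0.0639) or 4 (0.21, adjusted p = 0.0581).

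Adiponectin and resistin were not raised by SCO or CAP7 in the absence of TNF. Adipoq was at 8874 ± 429 CPM with SCO and 8652 ± 592 with CAP7 (SD, n = 4) against 9633 ± 214 untreated, with intervals of -0.26 to 0.03 and -0.30 to -0.01 (adjusted p = 0.272 and 0.0974). With library sizes alone both were called lower (-0.19, adjusted p = 0.0466, range 0.0466 to 0.510; and -0.27, adjusted p = 0.00212, range 0.00212 to 0.275), and the CAP7 difference was also called without CAP7 replicate 2 (-0.20, adjusted p = 0.0480). Retn was at 569 ± 31.4, 549 ± 52.9 and 524 ± 66.7 CPM with SCO, CAP7 and ROSI, against 632 ± 31.5 untreated (SD, n = 4). Its difference with ROSI just missed the threshold (-0.27 ± 0.11, adjusted p = 0.0507, range 0.00118 to 0.164 over the alternatives). It passed in 6 of the 16 alternatives, one of them leaving out ROSI replicate 1 (-0.36, adjusted p = 0.0143), whose 619 CPM lay within the untreated range while the other ROSI libraries stood at 513, 463 and 501.

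**Figure D2:**
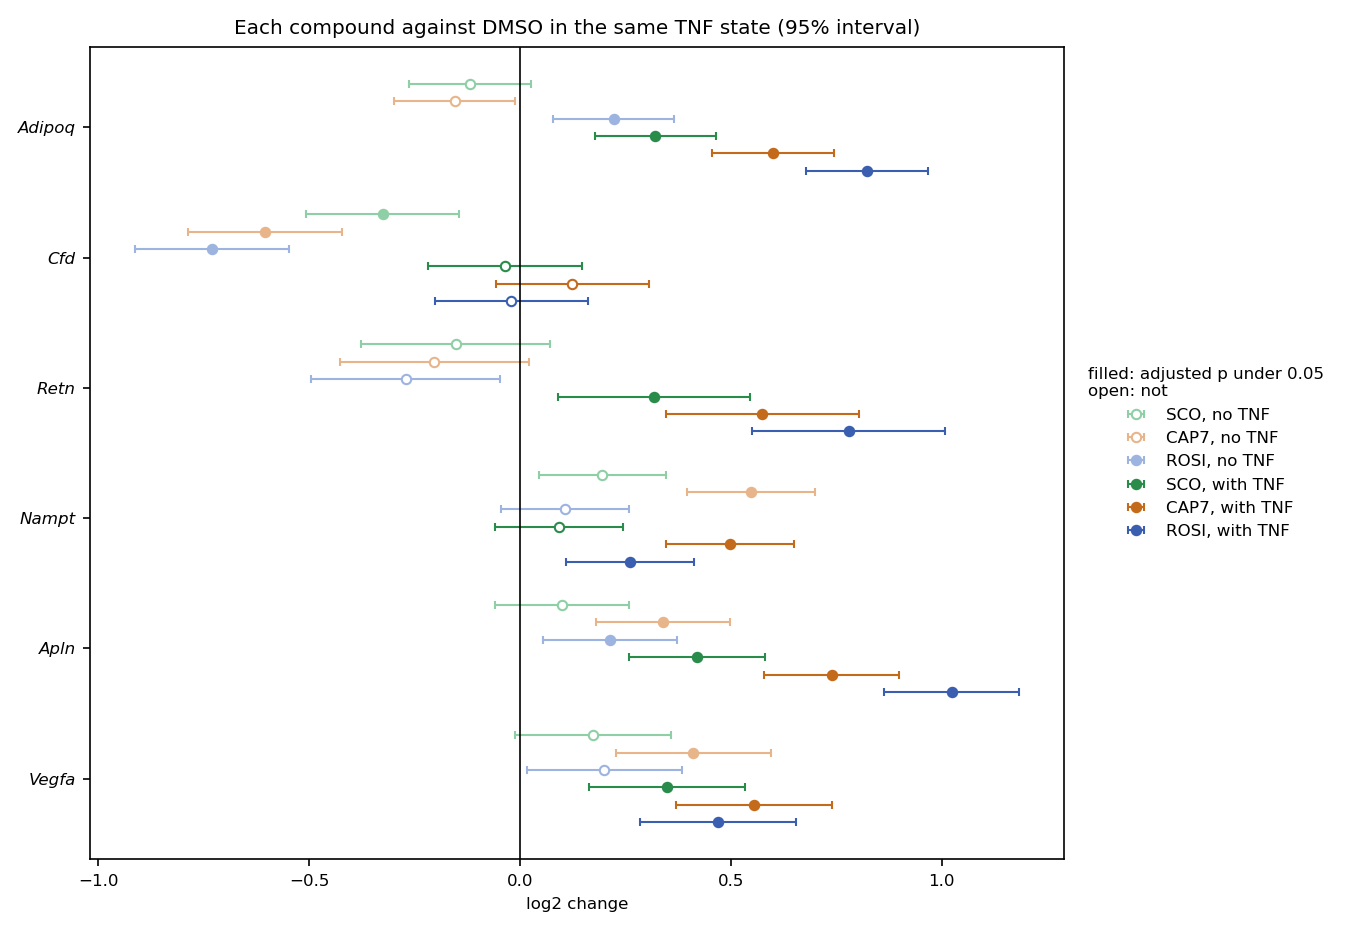
Log2 change of each adipokine gene with each compound against DMSO in the same TNF state, with its 95% interval from the edgeR fit; pale symbols are without TNF and dark symbols with it, and filled symbols were called. Cfd lies left of 0 without TNF and near 0 with it, while the changes of Adipoq, Retn and Apln with TNF lie to the right of those without it for each compound.

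With TNF present, the compounds raised adiponectin, apelin, Vegfa and resistin, the last less surely with SCO, where its call was lost in 8 of 16 alternatives. No change of adipsin was called. The 3 comparisons of TNF plus a compound with TNF alone share the libraries with TNF alone. With SCO 4 of the 6 adipokines were called, all higher, where 21.3% of all genes were called. With CAP7 there were 5 (32.2%) and with ROSI 5 (35.9%), also all higher. The median changes of the 6 were 0.32, 0.57 and 0.63, against 0.01, 0.00 and -0.00 over all genes.

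Adipoq stood at 3639, 3556, 3439 and 3376 CPM with TNF and SCO, at 4210, 3804, 4857 and 4122 with TNF and CAP7 and at 5159, 4301, 5078 and 5307 with TNF and ROSI. All of these were above the highest library with TNF alone, 3192 CPM. The changes against TNF alone were 0.32 ± 0.07 (adjusted p = 7.30e-04), 0.60 ± 0.07 (adjusted p = 1.04e-08) and 0.82 ± 0.07 (adjusted p = 2.93e-12). Apln stood at 62.9, 70.5, 50.9 and 60.7 CPM with SCO, at 77.3, 79.9, 72.9 and 75.3 with CAP7 and at 90.0, 87.1, 111 and 83.0 with ROSI. With TNF alone it did not exceed 49.6 CPM. Its changes were 0.42 ± 0.08 (adjusted p = 9.33e-05), 0.74 ± 0.08 (adjusted p = 9.94e-10) and 1.02 ± 0.08 (adjusted p = 1.37e-13), so that ROSI brought it to 2.03 times the level with TNF alone.

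Retn stood at 157, 165, 129 and 149 CPM with TNF and SCO, at 171, 161, 238 and 145 with CAP7 and at 212, 171, 205 and 238 with ROSI. The CAP7 and ROSI libraries were above all those with TNF alone, and those with SCO overlapped them. The changes were 0.57 ± 0.11 with CAP7 (adjusted p = 9.02e-05) and 0.78 ± 0.11 with ROSI (adjusted p = 4.34e-07). That with SCO was 0.32 ± 0.11 (adjusted p = 0.0389, range 2.07e-04 to 0.172) and was lost in 8 of 16 alternatives. Among these were DESeq2 (adjusted p = 0.0693), library sizes alone (0.25, adjusted p = 0.0991) and leaving out TNF replicate 1 (0.24, adjusted p = 0.172), 2 (0.32, adjusted p = 0.0688) or 3 (0.32, adjusted p = 0.0728), or SCO replicate 1 (0.29, adjusted p = 0.0887), 2 (0.27, adjusted p = 0.132) or 4 (0.32, adjusted p = 0.0604).

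Vegfa rose with each compound, to 179 ± 18.4 CPM with SCO (0.35 ± 0.09, adjusted p = 0.0043), 207 ± 28.3 with CAP7 (0.56 ± 0.09, adjusted p = 5.87e-06) and 194 ± 33.0 with ROSI (SD, n = 4; 0.47 ± 0.09, adjusted p = 6.46e-05). Its lowest library with a compound, 158 CPM, was above the highest with TNF alone, 153. Nampt was highest with CAP7, at 286, 309, 253 and 320 CPM (0.50 ± 0.07, adjusted p = 1.27e-06), clear of the libraries with TNF alone. With ROSI it was at 243, 270.5, 250.1 and 227 CPM, overlapping them, and was called (0.26 ± 0.07, adjusted p = 0.00544, range 0.00306 to 0.269). That call was lost with library sizes alone (0.11, adjusted p = 0.269) and without TNF replicate 2 (0.20, adjusted p = 0.05, at the threshold itself). With SCO Nampt differed by 0.09 (interval -0.06 to 0.24, adjusted p = 0.447).

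For Cfd no compound gave a call in the presence of TNF. It was at 6372 ± 820.5, 7117 ± 447 and 6438 ± 843 CPM with SCO, CAP7 and ROSI, against 6530.5 ± 565 (SD, n = 4), and the libraries overlapped in each case. The intervals of the change were -0.22 to 0.15, -0.06 to 0.31 and -0.20 to 0.16 (adjusted p = 0.837, 0.318 and 0.893). The summed adipocyte markers rose from a median of 6549 CPM to 30050 with SCO (25270 to 31690), 28570 with CAP7 (26360 to 33080) and 45070 with ROSI (42340 to 51920), and the preadipocyte sums were at 455.4 (451.1 to 564.9), 506.6 (425.7 to 608.0) and 504.3 (481.0 to 592.0). These adipocyte sums, again mostly Fabp4, are above the untreated 21110 CPM, but marker by marker 6 of 7 were still lower than untreated with TNF plus SCO (median -1.26), 6 with TNF plus CAP7 (-0.81) and 5 with TNF plus ROSI (-0.43), with 1, Fabp4, higher in each. Of all genes, 47.5%, 40.6% and 46% were called in these comparisons with untreated, in either direction. The leukocyte sums were at 7.478 (7.366 to 8.189), 6.181 (5.047 to 7.675) and 6.482 (5.582 to 6.982). The part of these shifts in the adipokine changes was not tested.

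Whether a compound's effect differed between the states without and with TNF was tested as an interaction, positive where the effect was more upward with TNF. The interactions of all 3 compounds share the untreated libraries and those with TNF alone, so they are not independent of each other. Of the 6 adipokines, 1 was called for SCO (4.64% of all genes), 4 for CAP7 (16.2%) and 4 for ROSI (14.6%), all positive. Most interactions called over all genes were positive as well, 75.7% with SCO, 63.4% with CAP7 and 69.2% with ROSI. For Adipoq the interactions were 0.44 ± 0.10 with SCO (adjusted p = 0.00475), 0.75 ± 0.10 with CAP7 (adjusted p = 5.73e-07) and 0.60 ± 0.10 with ROSI (adjusted p = 2.49e-05). Retn had 0.78 ± 0.16 with CAP7 (adjusted p = 4.41e-04) and 1.05 ± 0.16 with ROSI (adjusted p = 4.20e-06). Apln had 0.40 ± 0.11 with CAP7 (adjusted p = 0.0101) and 0.81 ± 0.11 with ROSI (adjusted p = 7.62e-07). Cfd had 0.73 ± 0.13 with CAP7 (adjusted p = 5.59e-05) and 0.71 ± 0.13 with ROSI (adjusted p = 7.04e-05), a gene lowered by both without TNF and called for neither with it. For Nampt and Vegfa no interaction was called, with intervals of -0.26 to 0.16 and -0.12 to 0.40 with CAP7 and -0.06 to 0.37 and 0.01 to 0.53 with ROSI. For SCO, the count rose from 1 to 2 without TNF replicate 4 (Retn 0.57, adjusted p = 0.0283, range 2.71e-04 to 0.179) and to 3 without TNF and SCO replicate 3 (Retn 0.55, adjusted p = 0.0326; Apln 0.41, adjusted p = 0.0136, range 0.0136 to 0.272).

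**Figure D3:**
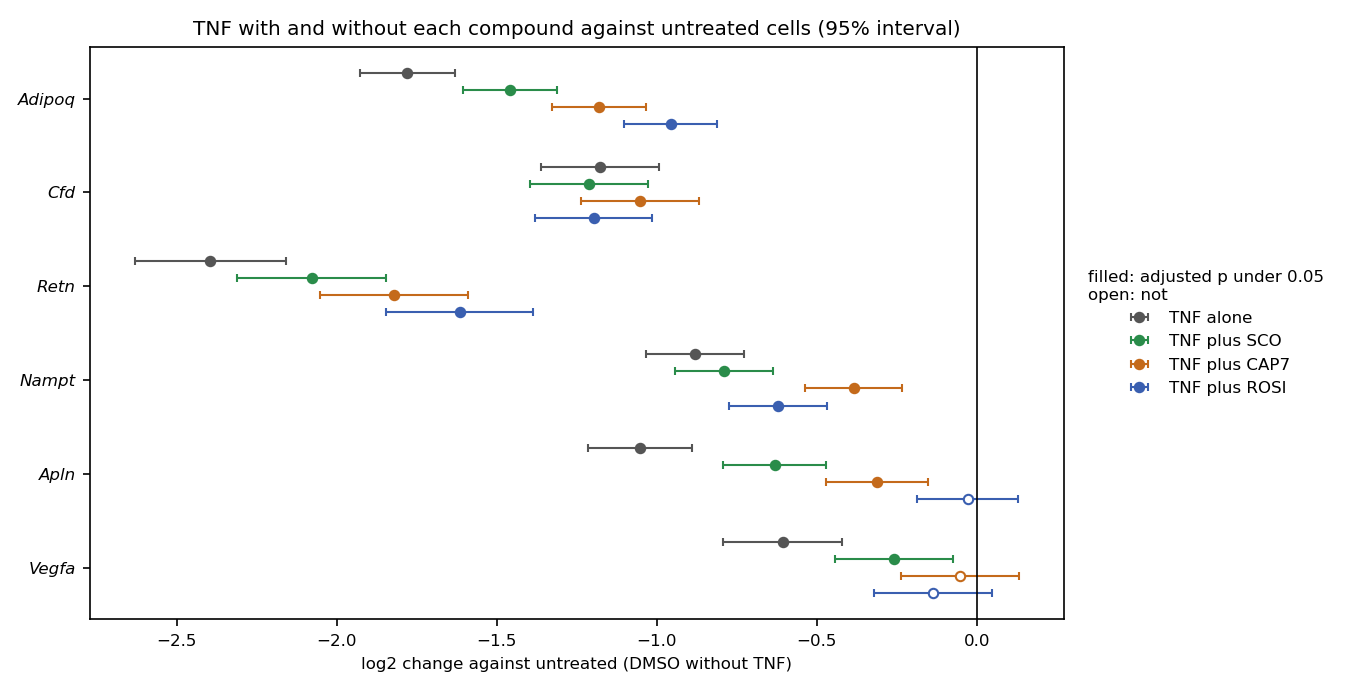
Log2 change against untreated cells of each adipokine gene with TNF alone (grey) and with TNF plus SCO (green), CAP7 (orange) or ROSI (blue), with 95% intervals from the edgeR fit; filled symbols were called. Apln with ROSI (-0.03) and Vegfa with CAP7 (-0.05) lie near 0, while Cfd lies between -1.05 and -1.21 in all 4 groups.

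The adipokines differed in how near they came to the untreated level when a compound accompanied TNF. With TNF and SCO all 6 were still lower than untreated (47.5% of all genes were called), with TNF and CAP7 5 (40.6%) and with TNF and ROSI 4 (46%). Apln reached 64.6%, 80.5% and 97.9% of the untreated mean with SCO, CAP7 and ROSI, from 48.2% with TNF alone, and with ROSI its difference from untreated was -0.03 (interval -0.19 to 0.13, adjusted p = 0.796). Vegfa reached 83.5%, 96.4% and 90.7%, from 65.6%, and was not called with CAP7 (-0.05, interval -0.24 to 0.13, adjusted p = 0.692) or ROSI (-0.14, interval -0.32 to 0.05, adjusted p = 0.227). These intervals do not show equal levels. With ROSI, Vegfa was called lower without TNF and ROSI replicate 2 (-0.23, adjusted p = 0.0486) or with library sizes alone (-0.28, adjusted p = 0.0137, range 0.0137 to 0.689). The call of Vegfa with SCO (-0.26, adjusted p = 0.0177, range 0.00488 to 0.0814) was lost without SCO replicate 1 (-0.23, adjusted p = 0.0561) or 4 (-0.21, adjusted p = 0.0814) or without untreated replicate 4 (-0.22, adjusted p = 0.0685).

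Adiponectin and resistin remained well below untreated. Adipoq was at 36.4%, 44.1% and 51.5% of the untreated mean with SCO, CAP7 and ROSI, from 29.1% with TNF alone, and Retn at 23.7%, 28.3% and 32.6%, from 19.01%. With ROSI the differences from untreated were -0.96 ± 0.07 for Adipoq (adjusted p = 3.35e-14) and -1.62 ± 0.11 for Retn (adjusted p = 5.85e-15). Nampt came to 57.8%, 76.6% and 65.0%, from 54.2%, and Cfd was at 43.1%, 48.2% and 43.6%, from 44.2%.

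Set against each other with TNF present, the compounds differed on adiponectin, apelin, Nampt and resistin. SCO was below ROSI for 3 of the 6 (14.4% of all genes were called): Apln by -0.60 ± 0.08 (adjusted p = 3.80e-07), Adipoq by -0.50 ± 0.07 (adjusted p = 1.93e-06) and Retn by -0.46 ± 0.11 (adjusted p = 0.00322), with no overlap of libraries. SCO was below CAP7 for 3 (9.16%): Nampt by -0.41 ± 0.07 (adjusted p = 4.63e-04), Apln by -0.32 ± 0.08 (adjusted p = 0.00695, range 0.00138 to 0.0742) and Adipoq by -0.28 ± 0.07 (adjusted p = 0.00946, range 6.26e-04 to 0.0718). The Apln call was lost without SCO replicate 3 (-0.23, adjusted p = 0.0742), and that of Adipoq without CAP7 replicate 3 (-0.21, adjusted p = 0.0718) or when only the compared groups were fitted (adjusted p = 0.0521). Retn was called lower with SCO than with CAP7 only in 2 alternatives, 1 of them without CAP7 replicate 4 (-0.34, adjusted p = 0.0456, range 0.0116 to 0.695).

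**Figure D4:**
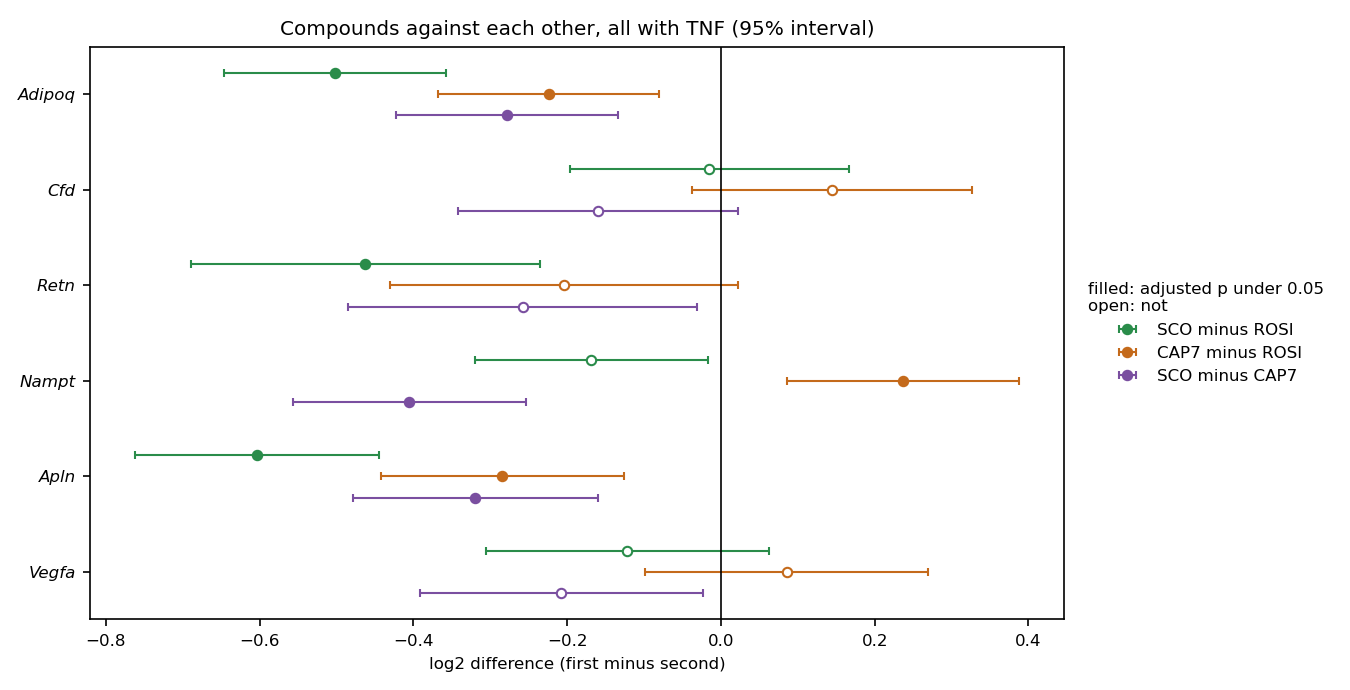
Log2 difference between compounds in the presence of TNF for each adipokine gene, with 95% intervals from the edgeR fit; green is SCO minus ROSI, orange CAP7 minus ROSI and purple SCO minus CAP7, and filled symbols were called. SCO lies below ROSI by 0.60 for Apln, and Nampt is the 1 gene called higher with CAP7 than with ROSI.

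Between CAP7 and ROSI with TNF, 3 of the 6 were called (8.57% of all genes), and each call was lost in some of the alternatives. Apln (-0.28 ± 0.08, adjusted p = 0.0153, range 0.0076 to 0.160) was lost without ROSI replicate 3 (-0.18, adjusted p = 0.160), with library sizes alone and when only the compared groups were fitted. Adipoq (-0.22 ± 0.07, adjusted p = 0.0413, range 0.00622 to 0.199) and Nampt (0.24 ± 0.07, adjusted p = 0.0399, range 0.00924 to 0.162) were lost in 6 of 8 fits that left out 1 library each. Those were the fits without CAP7 replicate 1, 2 or 4 or ROSI replicate 1, 3 or 4, which gave -0.22, -0.18, -0.21, -0.21, -0.21 and -0.19 for Adipoq and 0.25, 0.21, 0.19, 0.23, 0.24 and 0.20 for Nampt. Retn was not called (-0.20, adjusted p = 0.308, range 0.0183 to 0.654) except without CAP7 replicate 3, the highest of its group (-0.37, adjusted p = 0.0183). For Cfd and Vegfa no pair of compounds was called with TNF, and the intervals lay within -0.34 to 0.33 for Cfd and -0.39 to 0.27 for Vegfa.

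Without TNF, ROSI was above the others for adiponectin and CAP7 for Nampt. SCO against ROSI called 2 of the 6 (14.7% of all genes), Adipoq (-0.34 ± 0.07, adjusted p = 6.80e-04) and Cfd (0.41 ± 0.09, adjusted p = 0.0013). CAP7 against ROSI called 2 (11.7%), Adipoq (-0.38 ± 0.07, adjusted p = 2.40e-04) and Nampt (0.44 ± 0.07, adjusted p = 5.04e-05). SCO against CAP7 called 1 (6.04%), Nampt (-0.35 ± 0.07, adjusted p = 0.00252). Cfd lay close to the threshold there (0.28 ± 0.09, adjusted p = 0.0562, range 9.27e-04 to 0.227) and was called in 8 of 16 alternatives, among them without SCO replicate 3 (0.33, adjusted p = 0.0320) or CAP7 replicate 1 (0.32, adjusted p = 0.0428).

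Genes that work with each adipokine were looked at in lists of 125 genes in all, which include 4 lists of cell markers, and 92 of them were tested. In the adiponectin list (receptors, signalling and assembly factors, 10 of 10 tested) 1 rose and 6 fell with TNF (median -0.53), where 54.2% of all genes were called, among them the receptors Adipor2 (-1.33) and Cdh13 (-0.97), the assembly factor Gstk1 (-1.55) and the adaptor Appl2 (-0.81). Adipor2 rose with TNF plus SCO (1.27), CAP7 (1.46) and ROSI (1.80) against TNF alone, and without TNF as well (0.53, 0.46 and 0.79). With TNF, 1 of the 10 rose and 3 fell with SCO, 4 rose and 5 fell with CAP7, and 1 rose and 3 fell with ROSI, beside 21.3%, 32.2% and 35.9% of all genes called. Ero1a, the oxidase that controls adiponectin release, rose without TNF with SCO (0.67), CAP7 (1.76) and ROSI (0.72). With TNF it rose with CAP7 (1.23), and was at 0.34 with SCO and 0.28 with ROSI, neither called (adjusted p = 0.202 and 0.251).

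In the alternative complement list, 8 of 12 genes were tested, and 4 rose and 1 fell with TNF, a share called near the 54.2% over all genes. The substrate of adipsin moved the other way: Cfb, complement factor B, rose by 5.92 and C3, the central component, by 1.19, while Cd59a, which protects cells from complement, fell by 1.17. With TNF, CAP7 and ROSI raised Cfb further (0.76 each) and CAP7 raised C3 (0.37), where no change of Cfd was called. Without TNF, C3 fell with SCO (-0.47), CAP7 (-0.41) and ROSI (-0.54), as Cfd did. The resistin receptors Cap1 (0.49) and Tlr4 (0.66) rose with TNF, the 2 of 5 genes of that list that were tested.

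Of the retinol genes, 3 of 8 were tested. Dhrs3, which reduces retinal to retinol, fell with TNF (-2.91) and rose with TNF plus SCO (1.61), CAP7 (2.24) and ROSI (2.42). The partners of Rbp4 were as scarce as Rbp4 itself, with 0 counts for its plasma partner Ttr, 1 for its receptor Stra6 and 4 for Lrat. In the NAD list, 3 of 15 rose and 6 fell with TNF, near the 54.2% over all genes, among them Nnmt (-1.33) lower and Nadk (0.62) and Bst1 (2.88) higher. Nadk, the NAD kinase, rose with each compound too, by 0.39, 0.38 and 0.52 with TNF and 0.31, 0.20 and 0.39 without it, in the order SCO, CAP7, ROSI.

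In the apelin list, 2 of 5 were tested, and the convertase Furin rose with TNF (0.45) and fell with SCO (-0.24), CAP7 (-0.48) and ROSI (-0.62) in its presence. Aplnr, the receptor, had 24 counts in all. In the VEGF list, 11 of 14 were tested, and 4 rose and 4 fell with TNF, beside 54.2% of all genes called. Against the fall of Vegfa, the receptors Flt1 (3.58) and Nrp2 (3.26) and the ligand Vegfc (2.08) rose, and Vegfd fell by 1.61. With TNF, Flt1 fell with SCO (-1.05), CAP7 (-1.32) and ROSI (-1.23), where Vegfa rose. Kdr, the main receptor of Vegfa, had 5 counts in all.

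Among 36 other secreted factors of fat cells, 26 were tested, and 12 rose and 7 fell with TNF (median 0.53), beside 54.2% of all genes called. The chemokine Ccl2 (6.44), lipocalin Lcn2 (5.57), haptoglobin Hp (3.94) and Angptl4 (1.96), an inhibitor of lipoprotein lipase, rose. With TNF, 6 rose and 8 fell with SCO, 8 rose and 5 fell with CAP7, and 10 rose and 7 fell with ROSI, beside 21.3%, 32.2% and 35.9% of all genes called. Nrg4 (1.86, 2.19 and 2.49), C1qtnf12 (1.10, 1.69 and 1.74) and Angptl4 (0.42, 0.70 and 0.93) rose in each, in the order SCO, CAP7, ROSI.

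Across the 32 libraries, Adipoq and Retn had the most alike profiles of log2 CPM among the pairs given here (Pearson r = 0.9726), and Cfd and Vegfa were less alike (r = 0.4913). These are descriptions over libraries that share the large step with TNF. The genes most like Adipoq were Ldhb (0.9802), Fcgrt (0.98) and Acat1 (0.9788). Those most like Cfd were Mettl7a1 (0.9668), Pparg (0.9445) and Glb1 (0.9409). For Retn they were Fbxo45 (0.9803), Lpl (0.9797) and Pxmp2 (0.9788), for Nampt Plod1 (0.9727) and Scd2 (0.965), for Apln Bcar3 (0.9641), Gramd1b (0.963) and Ffar4 (0.961), and for Vegfa Hk2 (0.9311), Rb1 (0.9285) and Rnf11 (0.928).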

How the data were processed

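RNA of differentiated 3T3-L1 cells in 32 libraries (8 groups of 4) was read from the 3' ends of mRNA (QuantSeq), per the labels' protocols. The authors deposited a table of raw counts per Ensembl gene with no normalization. GRCm39 was the build, and limma 3.60.6, R 4.4.1, HTSeq 2.0.5, STAR 2.7.11b and cutadapt 4.9 were used, per the submitters' processing notes. How reads shared by overlapping genes were counted is not stated.

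From 28862 genes with a count, edgeR 4.0.16 (R 4.3.3) kept 14428 with filterByExpr by group. All were fitted with TMM factors and 1 mean per group over 32 libraries (24 residual degrees of freedom), the quasi-likelihood F test was applied to 19 comparisons, and p-values were adjusted by Benjamini-Hochberg over all genes tested. The method was tested on simulated data. CPM values use the effective library sizes, and profile likeness is Pearson r of log2 CPM with a prior count of 2. Total counts per library (11.31 to 37.68 M) set the precision. The lowest chi-square per degree of freedom between libraries of a group was 6.478, so none counted as a duplicate. Alternatives were library sizes alone, RLE factors, no filter, at least 5 CPM in 4 libraries, DESeq2 1.42.0, limma-voom (limma 3.58.1), a replicate block, only the compared groups, and leaving out each library.

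The members and gene lists were chosen with earlier results of these data known. Of each list, up to 4 genes with the lowest p in each of the comparisons with a DMSO control could be named, and for each member the 3 genes most like it; 1 of these is not reported here. Symbols were matched by Ensembl ID. No protein sequences were used here.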

Additional observations from a re-analysis of the deposited data

Results flagged for a closer look

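Dixon's 95% criterion was applied to the 4 libraries of each of 8 groups, for each of the 6 tested adipokines. In 3 of these sets a library stood apart from the other 3. Chance alone meets the criterion in about 1 of 20 sets, so a few such sets were to be expected. Adipoq was at 3192 CPM in replicate 4 with TNF alone, against 2655 to 2700 in the others. Cfd was at 5177 CPM in replicate 3 with TNF and ROSI, against 6783 to 6932. Nampt was at 230 CPM in replicate 2 with TNF and SCO, against 216.9 to 217.5. For Rbp4 the same criterion picked out the only libraries with a count, at 0.0747 CPM with SCO (replicate 2), 0.0463 with CAP7 (replicate 1) and 0.214 with TNF and ROSI (replicate 4). These stand for 1, 1 and 4 counts.

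The effect of a compound differed between the states without and with TNF, by edgeR's test of the interaction, for these genes. With SCO it was Adipoq (0.44). With CAP7 they were Adipoq (0.75), Cfd (0.73), Retn (0.78) and Apln (0.40), and with ROSI Adipoq (0.60), Cfd (0.71), Retn (1.05) and Apln (0.81), all log2 values.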

How the results depend on the processing

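Over 114 results of single adipokines there were 1968 alternative values, of which 1865 kept direction and side of the threshold, 42 lost and 42 gained a call, and 19 turned direction, none of them called. Of 656 alternative counts, 625 were within 1.5 times the count given.

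Members called with SCO without TNF (1) numbered 2 with library sizes alone, 4 when only the compared groups were fitted and 1 to 2 with a library left out. With ROSI without TNF (3) they were 5 with no filter and 5 with only the compared groups. For SCO against CAP7 without TNF (1) they were 2 with library sizes alone, with a filter of 5 CPM, with limma-voom and with a replicate block, 3 with no filter and with DESeq2, 4 with only the compared groups, and 1 to 2 with a library left out. For CAP7 against ROSI with TNF (3) they were 1 with library sizes alone, 0 with only the compared groups by edgeR (3 at an unadjusted p under 0.05; 3 by DESeq2 and by limma-voom over all groups) and 0 to 4 with a library left out. For the interaction of SCO (1) they were 3 with no filter, 2 with only the compared groups and 1 to 3 with a library left out. Over all these alternatives, the calls among all genes numbered 2198 to 3134 for SCO without TNF (against 2781). They were 4822 to 5923 for ROSI without TNF (against 5399) and 522 to 1111 for SCO against CAP7 without TNF (against 872). For CAP7 against ROSI with TNF they were 791 to 1460 (against 1237), and for the interaction of SCO 563 to 808 (against 670).

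Of all genes, CAP7 against ROSI with TNF called 791 (against 1237) and SCO against CAP7 with TNF 738 (against 1322) with only the compared groups. With a library left out the latter called 689 to 1527, the lowest without SCO replicate 3 (723 without CAP7 replicate 1), and SCO against CAP7 without TNF 522 to 743 (against 872), the lowest without SCO replicate 1. Replicate numbers were not taken to pair the samples: the labels tie them to no shared culture or day, and in 0 of 28 pairs of groups did every same-numbered pair correlate above 0.1. However, 16 of 32 libraries correlated best with their own number, where 1 in 4 would be 8, a hint from the data and not from the design. The replicate block moved no other count of members by over 1.5 times.

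Direction turned with library sizes alone for Nampt with ROSI without TNF (-0.035), Vegfa in SCO against ROSI without TNF (0.046) and Cfd in SCO against ROSI with TNF (0.071). With a library left out, Cfd ranged from -0.093 to 0.053 with SCO and -0.071 to 0.070 with ROSI in the presence of TNF, and from -0.11 to 0.091 between them. Retn in CAP7 against ROSI without TNF ranged from -0.0022 to 0.16, Adipoq in SCO against CAP7 without TNF from -0.0010 to 0.080, Nampt in the interaction of CAP7 from -0.10 to 0.019, Vegfa with TNF and CAP7 against untreated from -0.13 to 0.013 and Apln with TNF and ROSI against untreated from -0.13 to 0.022. Library sizes alone lowered the share of calls that were higher, from between 49.2% and 62% to between 27.8% and 44.2% for the compounds against DMSO, and from 53%, 52.8% and 54.1% to 46.5%, 40.2% and 36.7% for TNF plus SCO, CAP7 and ROSI against untreated, and raised it from between 39.9% and 50.2% to between 57% and 72% for the pairs of compounds. It moved the median of all genes to -0.13 and -0.17 with CAP7 and ROSI without TNF, -0.10 and -0.16 with TNF, and -0.13 for TNF plus ROSI against untreated. The TMM factors that this setting leaves out were 1.049 to 1.053 in the untreated libraries and 0.9469 to 0.9686 with ROSI without TNF. Leaving them out shifts the log2 changes of all genes in a comparison by about the same amount. What lay behind the factors, or behind the other turns of direction, was not tested. Rbp4 had too few counts to test.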
